A study of Caenorhabditis elegans with 18 samples.

Results

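This account covers 43 genes of the RNA interference and small RNA machinery of Caenorhabditis elegans, taken from a list of named genes and followed across plasmid and age. All 43 were found among the 46748 genes of the raw counts table, and all 43 passed the filter on low counts that left 14735 genes for testing. They fall into 8 roles, set by hand: dicing and primary Argonautes (4 genes), microRNA Argonautes (2), the ERI pathway (4), small RNA methylation and the piRNA Argonaute (2), amplification by RNA-dependent RNA polymerases and the mutator complex (13), secondary Argonautes (7), nuclear RNAi (5), and uptake and spreading of double-stranded RNA (6). Transcripts were measured, not small RNAs or silencing.

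In RNA interference, the enzyme Dicer cuts double-stranded RNA into short primary small RNAs that guide an Argonaute protein to matching transcripts. In worms, RNA-dependent RNA polymerases then copy the target into many secondary small RNAs, which a large family of worm-specific Argonautes carries in the cytoplasm and into the nucleus. Worms also take double-stranded RNA from food bacteria across the gut and pass it between tissues, which is what feeding RNAi uses. The same machinery handles endogenous small RNAs, much of it in the germ line.

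The animals were whole N2 hermaphrodites, N2 being the wild-type strain, and they carried no transgene named in the labels. At day 5 and at day 1 the groups were M05B5.5 (a plasmid named for hlh-2), T14F9.5 (named for lin-32) and L4440 (the empty feeding vector, here the control), with 3 libraries in each of 6 groups. Worms of every group are thus labelled with an RNAi feeding plasmid, the controls included, and no group without one is compared here. Separate cultures for the libraries within a group are not stated in the labels, and p-values then measure only the spread between these samples, which may be technical. Library totals ran from 27024193 to 43016293 counts. Levels are counts-per-million values (CPM) scaled with TMM factors, which equalise libraries over most genes.

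The label check came out differently for the 2 plasmids. hlh-2 stood at 20.9, 31.1 and 12.5 CPM in M05B5.5 libraries at day 5, against 58.6, 59.3 and 53.8 CPM in L4440. Day-1 levels of hlh-2 were 12.7, 12.2 and 11.4 CPM in M05B5.5, against 46.4, 23.7 and 53.9 CPM in L4440, so it was lower in all M05B5.5 libraries at both ages. lin-32 stood at 1.06, 4.92 and 5.29 CPM in libraries labelled T14F9.5 at day 5, against 0.952, 0.542 and 0.234 CPM in L4440, and at 2.45, 2.18 and 1.96 CPM against 1.74, 2.57 and 1.83 CPM at day 1. It was lower at neither age, and directions given for T14F9.5 refer to the libraries labelled so.

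The machinery was well expressed at both ages, and its members spanned a wide range of levels. Set per kilobase of exon, which allows genes to be compared, the most abundant were the germ line Argonaute wago-1 (mean over the 18 libraries 308 CPM per kb), the germ line nuclear Argonaute hrde-1 (213), the Dicer partner rde-4 (164), the Piwi protein gene prg-1 (130.1), the Argonaute csr-1 (119.7) and ergo-1, an Argonaute of endogenous primary small RNAs (107). wago-1 stood at percentile 97.6 of all tested genes on that scale. The lowest was the secondary Argonaute sago-2 at 5.76 CPM per kb, at percentile 47.5. Above it came the microRNA Argonaute alg-1 (9.77 CPM per kb), the gut uptake receptor sid-2 (11.04), the kinase sid-3 (13.03) and the endosome-associated sid-5 (16.4), so that 3 of the 5 lowest belong to uptake and spreading.

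Within roles the levels differed by large factors. Among secondary Argonautes, wago-1 and csr-1 stood far above wago-4 (52.7 CPM per kb), ppw-2 (29.2), ppw-1 (19.2), sago-1 (17.1) and sago-2. Among nuclear RNAi genes, hrde-1 stood above nrde-4 (70.7), nrde-2 (30.9), nrde-3, the somatic nuclear Argonaute (28.8), and nrde-1 (26.7). The RNA-dependent RNA polymerases were of similar level, with ego-1, which acts in the germ line, at 27.2, rrf-1, which acts mainly in somatic tissue, at 20.95 and rrf-3, which acts upstream of ergo-1, at 20.4 CPM per kb. rrf-1 and ego-1 are neighbours on chromosome I, 563 bases apart. In all, 13 of the 43 members (30.2%) lie on chromosome I, where 15.9% of the tested protein-coding genes lie.

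**Figure D1:**
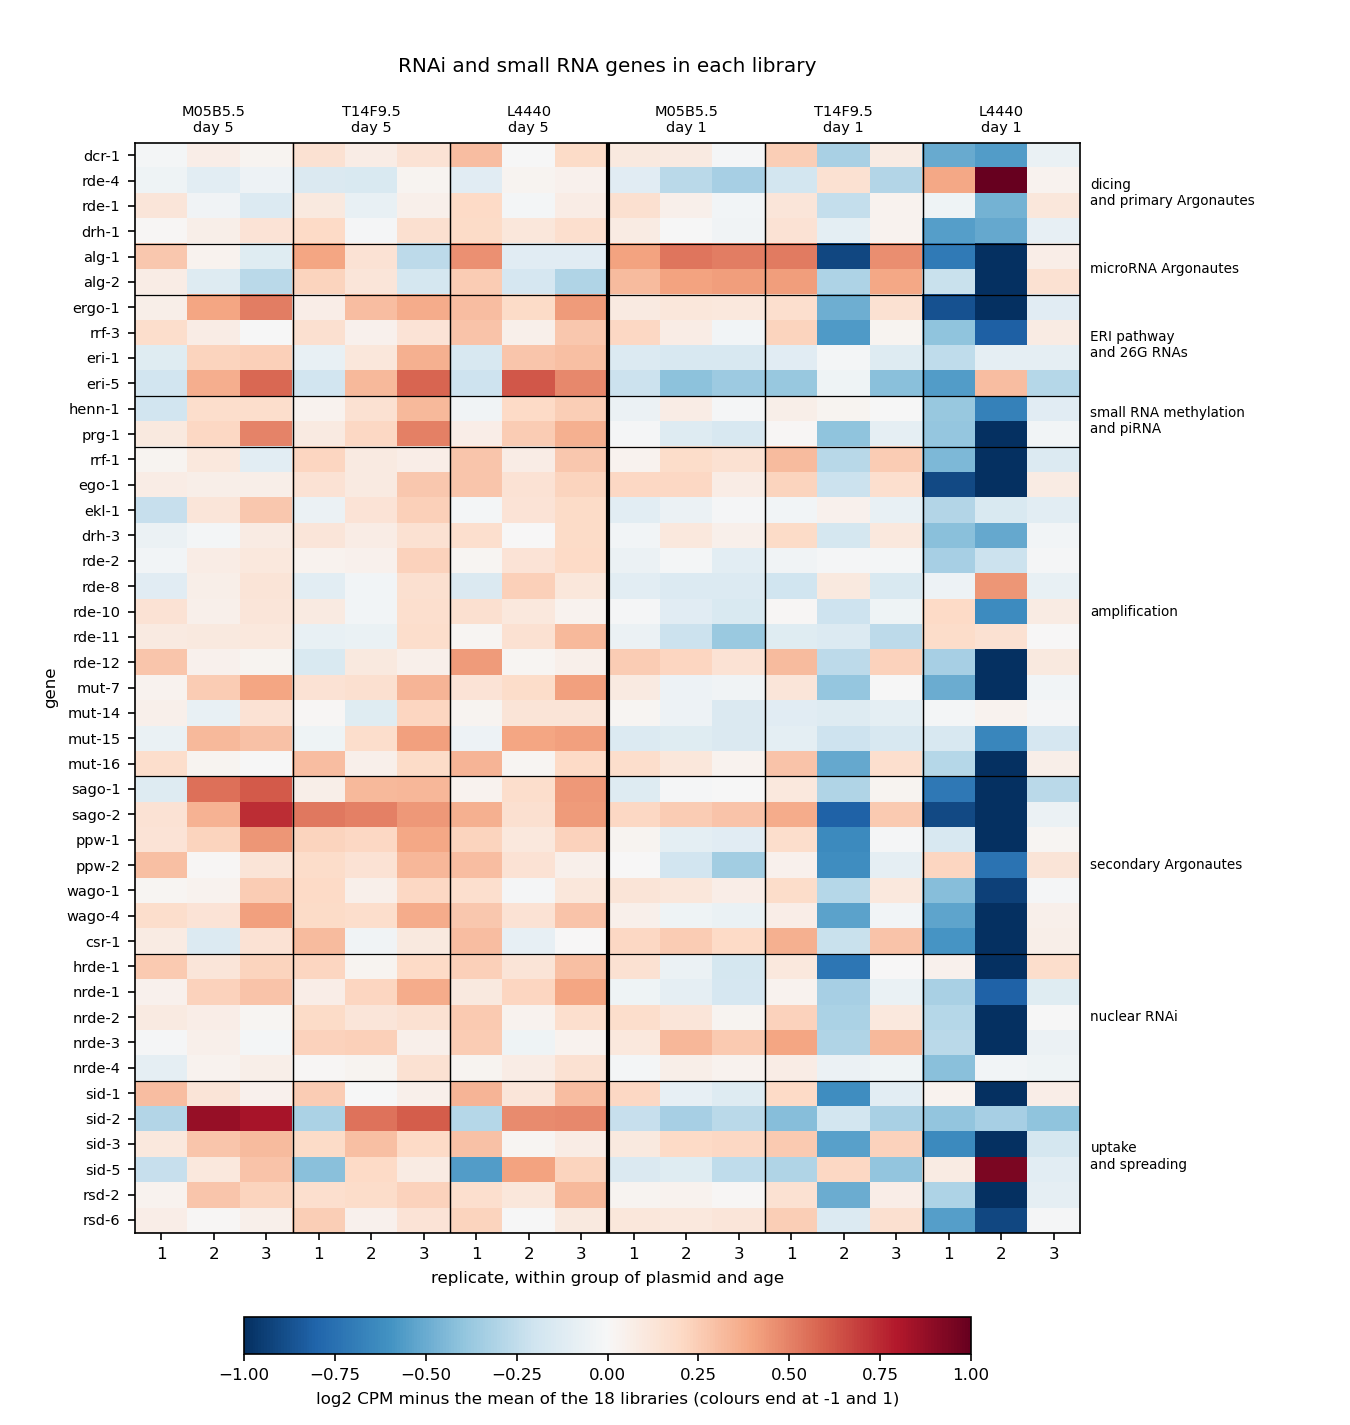
The heat map shows log2 CPM of each of the 43 genes in each library minus the mean over the 18 libraries, with genes in rows by role and libraries in columns by plasmid and age, day 5 on the left. Blue fills L4440 day-1 replicate 2 for most genes, while rde-4 and sid-5 are red there, and sid-2 and eri-5 are red in day-5 replicates 2 and 3 of each plasmid.

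The day-1 controls were far more uneven in these genes than any other group. The median coefficient of variation of a member was 9.005% in M05B5.5, 7.68% in T14F9.5 and 8.93% in L4440 at day 5, and 4.83% in M05B5.5, 16.6% in T14F9.5 and 32.1% in L4440 at day 1. Summed over the 43 genes, day-5 libraries held 6953 to 7639 CPM. At day 1 the M05B5.5 libraries held 7031, 6847 and 6609 CPM, those labelled T14F9.5 7334, 5270.0 and 6918 CPM, and L4440 5298, 3843 and 6635 CPM. T14F9.5 replicate 2 and L4440 replicates 1 and 2 stood below all others. In those libraries 38, 36 and 37 of the 43 members lay below their mean over all libraries. With lows shared by most members, the median Pearson r over the 903 pairs of members was 0.68 over the 18 libraries, with 751 pairs above 0, which describes libraries as much as genes.

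**Figure D2:**
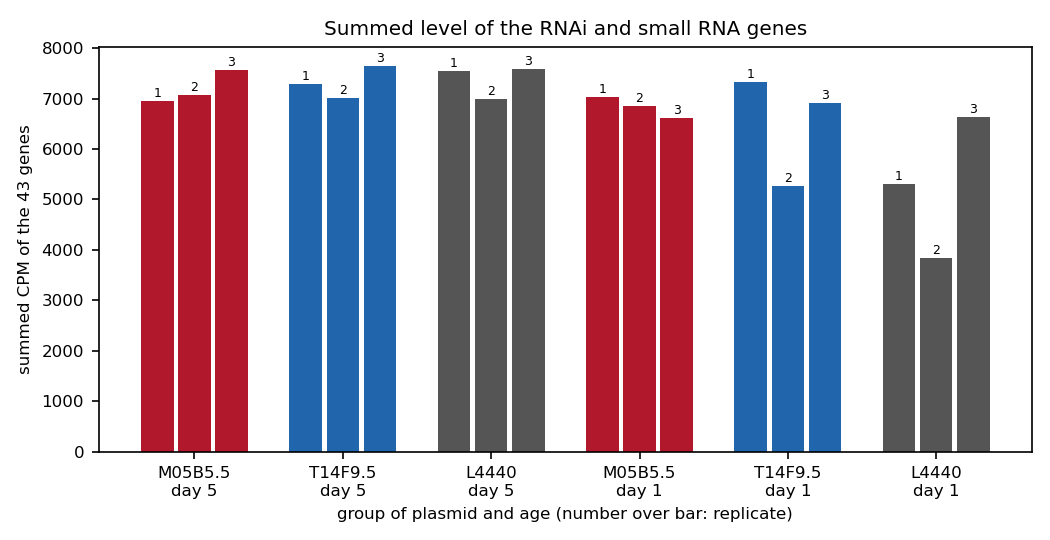
Bars give the summed CPM of the 43 genes in each library, by plasmid and age. All day-5 bars lie between 6953 and 7639 CPM, and the bars of T14F9.5 replicate 2 and L4440 replicates 1 and 2 at day 1 are the lowest, at 5270.0, 5298 and 3843 CPM.

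The lows went with transcript length. In L4440 day-1 replicate 2, deviation from the mean library fell by 0.71 on the log2 scale per doubling of exon length over the members, and by 0.66 over all tested genes. Set against replicates 1 and 3 of its group, all 22 longer members (3076 to 6696 bases) were lower there, with a median of -0.96, while 11 of the 21 shorter ones (516 to 3055 bases) were, with a median of -0.04. The short genes rde-4 (1204 bases, the double-stranded RNA-binding partner of Dicer) and sid-5 (516 bases) were instead at their highest, at 419 and 15.8 CPM. T14F9.5 replicate 2 and L4440 replicate 1, both of day 1, leaned the same way, with -0.24 and -0.21 per doubling over the members. The labels give this pair 1 index and 1 lane between them. L4440 day-1 replicate 3 did not lean this way, at 0.06 per doubling over the members. Fits without that replicate thus keep only the L4440 day-1 libraries that did. In addition, on the first principal component of all genes replicate 1 of every plasmid at day 5, called the first day-5 libraries from here on, lay with the day-1 libraries, at -22.5 (M05B5.5), -19.4 (T14F9.5) and -19.9 (L4440), against 52.9 to 70.2 for later day-5 libraries. Some values without these libraries are given below, but not every lost call is repeated at its gene. The calls that outlasted the loss of the pair are named with the age fits. The first day-5 libraries were set apart in these same counts because they lay with day 1. Age fits without them are therefore no separate support for a change with age. L4440 day-1 replicate 2 was singled out in these same counts too, so fits without it are no separate support either.

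In the main fit with all libraries, members were called higher with age or did not pass the test, and none was called lower. Over the mean of the 3 plasmids, 15 of 43 members (34.9%) were higher at day 5 than at day 1 at an adjusted p under 0.05 and 0 were lower (edgeR quasi-likelihood test, Benjamini-Hochberg over all 14735 tested genes). Among all tested genes 13% were called higher and 15.2% lower. The median log2 fold change was 0.22 over the members and -0.002 over all tested genes, and 41 of 43 members lay above 0, against 49.8% of all genes. Changes were modest: the called ones ran from 0.18 (rde-2) to 0.71 (sid-2). In whole animals, a change in the share of a tissue and a change in RNA per cell cannot be told apart. Only 1 of the 7 lanes holds libraries of both ages, so lane and age cannot be told apart here. Below, values are given per library, in the order of the replicates, or as the range and median of the 9 libraries of an age. Counts by role stand beside the 13% of all tested genes called higher, and no role was tested against other genes.

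Members called higher outnumbered those called lower in each of the fits that follow, but how many were called depended on the libraries in the fit. Without the first day-5 libraries, 15 members were higher and 0 lower, 13 of them among the 15 called with all libraries, against 20.2% higher and 25.4% lower among all genes. Without those and L4440 day-1 replicate 2, 21 members (48.8%) were higher and 1 lower, against 27.3% and 27.7%, and all 15 were among the 21. With an offset for the trend of each library against gene length, 12 members (27.9%) were higher and 1 lower, against 17.5% and 11.8%. In that fit the median over the members fell to 0.11, with 29 of 43 above 0. Of the 22 longer members 10 lay above 0 (median -0.001), and of the 21 shorter ones 19 did (median 0.19). The member called lower in those last fits was alg-2, named after its values were seen. DESeq2 called 19 members higher and 0 lower, against 17.3% and 17.4% of all genes. Leaving out 1 library at a time gave 7 to 29 calls, 29 without L4440 day-1 replicate 3 (21.8% of all genes were then called higher) and 7 without L4440 replicate 3, T14F9.5 replicate 3, or M05B5.5 replicate 2 or 3 of day 5. Without T14F9.5 replicate 2 and L4440 replicate 1 of day 1, the pair of the same index and lane, 5 members remained, against 4.99% of all genes, which were sid-2, mut-15, sago-1, prg-1 and nrde-1. These 5 were called in all 27 alternative fits that could be made, whereas drh-1, rsd-2, henn-1, rde-2 and ppw-1 were called in 11 to 13 of them.

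**Figure D3:**
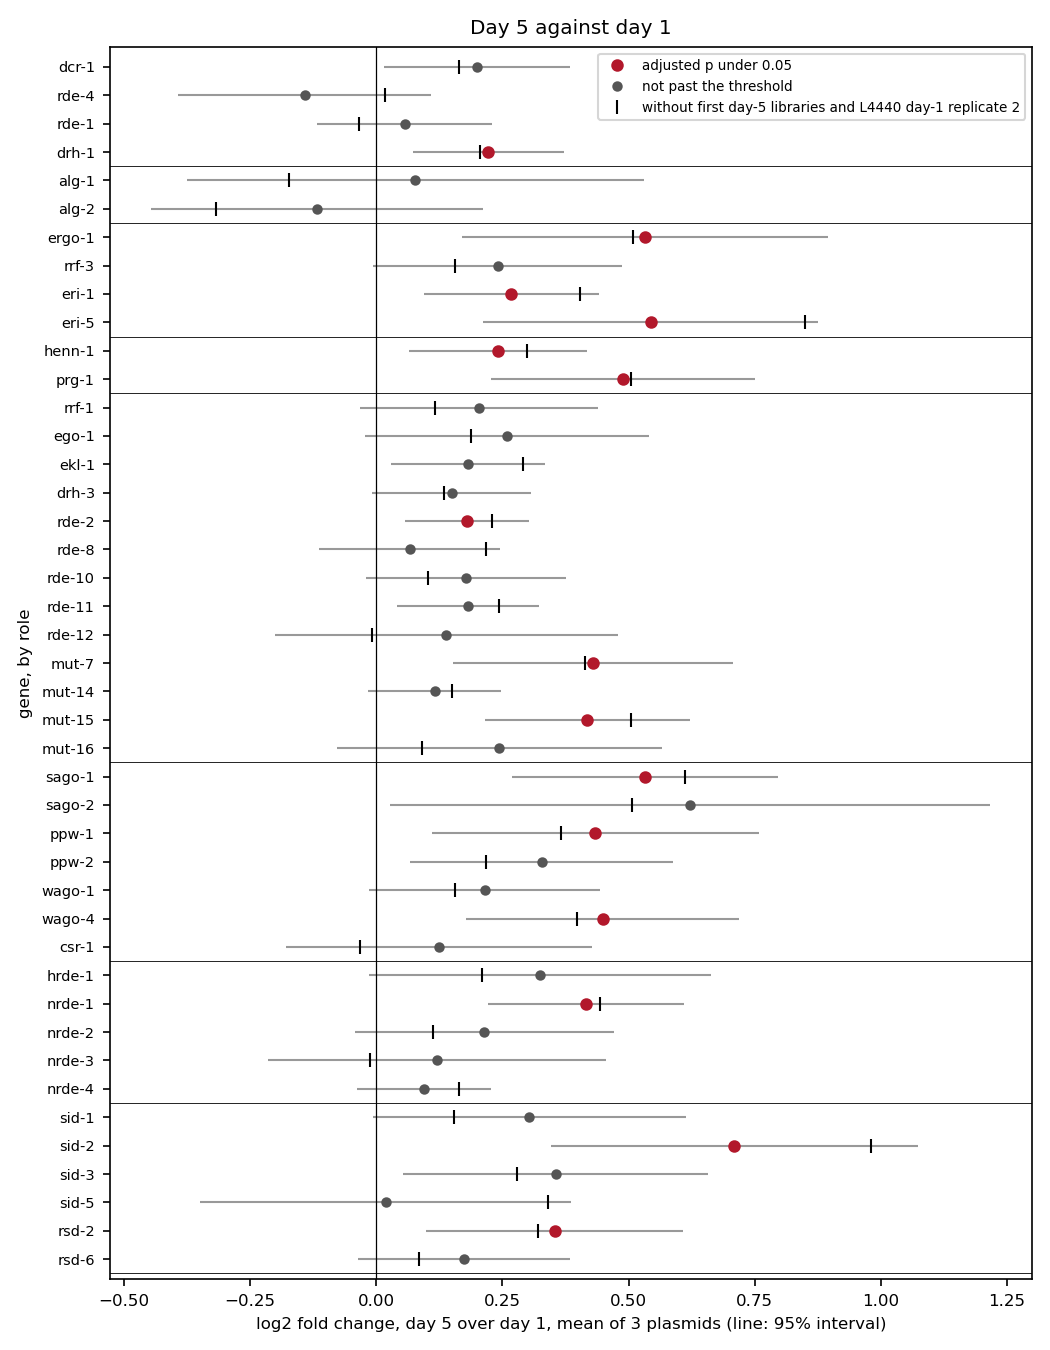
Points give each gene's log2 fold change of day 5 over day 1 as the mean of the 3 plasmids, with its 95% interval, red where the adjusted p is under 0.05, and short black bars the value without the first day-5 libraries and L4440 day-1 replicate 2. Of the 43 points 41 lie above 0 and 15 are red, with sid-2 the farthest right at 0.71.

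Among genes for uptake and spreading, 2 of 6 rose with age, against 13% of all tested genes, and sid-2 had the largest fold change of the 43. sid-2 (WBGene00004796, chromosome III from 13679445 to 13682450, plus strand) encodes the membrane protein with which the gut takes up double-stranded RNA from its lumen. sid-2 stood at 8.77, 19.7 and 19.1 CPM in M05B5.5 libraries at day 5, against 9.16, 8.50 and 8.91 CPM at day 1. In libraries labelled T14F9.5 it stood at 8.59, 15.6 and 16.4 CPM at day 5, against 7.98, 9.46 and 8.55 CPM at day 1, and in L4440 libraries at 8.82, 14.9 and 14.97 CPM at day 5, against 8.15, 8.53 and 8.09 CPM at day 1. The 6 later day-5 libraries (14.9 to 19.7 CPM) thus lay above all day-1 libraries (7.98 to 9.46 CPM), and the first day-5 libraries (8.59 to 8.82 CPM) within the day-1 range. The log2 fold change was 0.71 ± 0.17 (SE; adjusted p = 0.0130, edgeR), and 0.96 without the first day-5 libraries (adjusted p = 3.8e-07). Those libraries were set apart for lying with day 1 in these same data, so the second value is no separate support. rsd-2, needed for spreading of the RNAi response, was the other called member and held 189 to 230.0 CPM (median 209) at day 5, against 84.5 to 204 CPM (median 186) at day 1. Its call was lost with the length offset (adjusted p = 0.0948, edgeR). Of the members not called, the double-stranded RNA channel sid-1 held 76.8 to 97.2 CPM (median 84.0) at day 5, against 35.1 to 89.0 CPM (median 72.8) at day 1. The kinase sid-3 held 51.5 to 63.3 CPM (median 58.1) at day 5, against 18.8 to 60.8 CPM (median 54.3) at day 1. rsd-6, which works with rsd-2, held 186 to 222 CPM (median 196) at day 5, against 99.8 to 222 CPM (median 202) at day 1. sid-5 held 5.54 to 10.9 CPM (median 8.79) at day 5, against 6.21 to 15.8 CPM (median 7.54) at day 1, the top value of day 1 being that of L4440 replicate 2. Their ranges overlapped between ages.

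Among genes for dicing and primary small RNAs, 1 of 4 rose, beside 13% of all tested genes. drh-1, a RIG-I-like helicase that acts with Dicer in antiviral RNAi, held 75.2 to 87.0 CPM (median 83.6) at day 5, against 51.8 to 83.7 CPM (median 74.2) at day 1. The lowest day-1 values of drh-1 were those of L4440 replicates 1 and 2. Its call was made in 13 of the 27 alternative fits, and was lost without the first day-5 libraries (adjusted p = 0.0580) and with the length offset (adjusted p = 0.993, edgeR). Dicer itself, dcr-1, was not called over the mean of the plasmids and held 195 to 246 CPM (median 208) at day 5, against 134 to 235 CPM (median 196) at day 1. rde-1, the primary Argonaute of feeding RNAi, held 99.7 to 126 CPM (median 113) at day 5, against 78.9 to 122 CPM (median 112) at day 1. rde-4 held 172 to 197 CPM (median 186) at day 5, against 153 to 419 CPM (median 177) at day 1, with the 419 CPM of L4440 replicate 2 far above the next highest. The medians of rde-4 at the 2 ages thus lay close, and its log2 fold change was -0.14 ± 0.12.

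Neither microRNA Argonaute was called. alg-1 held 51.2 to 84.4 CPM (median 62.9) at day 5, against 20.7 to 88.9 CPM (median 81.2) at day 1. For alg-2 the values were 96.3 to 141 CPM (median 109) at day 5, against 52.2 to 158 CPM (median 148) at day 1. At day 1 the M05B5.5 libraries and T14F9.5 replicates 1 and 3 held 148 to 158 CPM of alg-2, above every day-5 library. The L4440 libraries (52.2 to 132 CPM) and T14F9.5 replicate 2 (95.8 CPM) did not lie above them. This split was made after the values were seen. The log2 fold change of alg-2 was -0.12 with all libraries, -0.32 without the first day-5 libraries and L4440 day-1 replicate 2 (adjusted p = 0.0273) and -0.33 with the length offset (adjusted p = 0.00589, edgeR). It is named after its values were seen. L4440 day-1 replicate 2 held its lowest value (52.2 CPM). The first day-5 libraries held 125 to 141 CPM, against 96.3 to 129 CPM in the later ones. Leaving these out favours a fall of alg-2, so that fit is no separate support.

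Of the ERI pathway, which makes endogenous primary small RNAs and competes with feeding RNAi for shared factors, 3 of 4 members rose, against 13% of all tested genes. eri-5 (WBGene00021419, chromosome IV from 2390821 to 2396263, plus strand) encodes a tudor-domain protein that tethers the polymerase RRF-3 to Dicer. eri-5 stood at 32.1, 47.2 and 54.8 CPM in M05B5.5 libraries at day 5, against 31.7, 27.7 and 28.6 CPM at day 1. In libraries labelled T14F9.5 it stood at 32.2, 46.0 and 55.0 CPM at day 5, against 28.2, 35.5 and 27.4 CPM at day 1, and in L4440 libraries at 31.8, 56.6 and 51.2 CPM at day 5, against 24.9, 45.6 and 30.1 CPM at day 1. As with sid-2, its later day-5 libraries (46.0 to 56.6 CPM) lay above its first day-5 libraries, which lay near the bulk of day 1, while L4440 day-1 replicate 2 stood at 45.6 CPM. The log2 fold change was 0.54 ± 0.16 (adjusted p = 0.0223, edgeR) and was not called with the length offset (adjusted p = 0.0586). eri-1 (WBGene00001332, chromosome IV from 415635 to 419958, minus strand), an exonuclease that limits RNAi, held 77.7 to 111 CPM (median 102) at day 5, against 72.9 to 85.7 CPM (median 79.4) at day 1. Its log2 fold change was 0.27 ± 0.08 (adjusted p = 0.0272, edgeR), with an adjusted p of 0.332 under the length offset. ergo-1 was also called, though in only 16 of the 27 alternative fits. It held 383 to 525 CPM (median 457) at day 5, against 106 to 414 CPM (median 393) at day 1. The polymerase rrf-3 was not called and held 111 to 135 CPM (median 122) at day 5, against 63.0 to 129 CPM (median 113) at day 1.

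Both genes for small RNA methylation and piRNAs were called higher, against 13% of all tested genes. prg-1 (WBGene00004178, chromosome I from 7585329 to 7588367, minus strand) encodes the Piwi Argonaute that carries piRNAs in the germ line. prg-1 stood at 362, 389 and 475 CPM in M05B5.5 libraries at day 5, against 335, 309 and 301 CPM at day 1. In libraries labelled T14F9.5 it stood at 358, 389 and 478 CPM at day 5, against 339.9, 255 and 318 CPM at day 1, and in L4440 libraries at 354, 403 and 432 CPM at day 5, against 258, 159 and 331 CPM at day 1. All day-5 values lay above all day-1 values. The log2 fold change of prg-1 was 0.49 ± 0.12 (adjusted p = 0.0146, edgeR) and 0.35 with the length offset. henn-1, the methyltransferase that modifies the ends of piRNAs and of ERGO-1 small RNAs, held 60.4 to 86.5 CPM (median 78.1) at day 5, against 43.2 to 72.7 CPM (median 68.3) at day 1. Its call was made in 11 of the 27 alternative fits and was lost without the pair of the same index and lane. Exons of henn-1 overlap those of neighbouring genes on both strands, over 10 and 86 bases, and the library kit does not mark strand.

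Of the 13 amplification genes 3 rose (13% of all tested genes did), and all 13 had a fold change above 0, as 49.8% of all genes had. mut-15 (WBGene00011323, chromosome V from 15002543 to 15005067, plus strand) encodes a component of the mutator complex, in which secondary small RNAs are made. mut-15 stood at 55.8, 73.1 and 71.6 CPM in M05B5.5 libraries at day 5, against 53.2, 53.6 and 52.8 CPM at day 1. In libraries labelled T14F9.5 it stood at 56.5, 66.0 and 77.8 CPM at day 5, against 54.5, 50.4 and 52.3 CPM at day 1, and in L4440 libraries at 56.5, 76.5 and 77.6 CPM at day 5, against 52.3, 37.1 and 51.8 CPM at day 1. Every day-5 value lay above every day-1 value, with the first day-5 libraries closest to day 1. The log2 fold change was 0.42 ± 0.10 (adjusted p = 0.0114, edgeR). mut-7, an exonuclease of the same complex, and rde-2, its partner, were called as well. mut-7 held 151 to 196 CPM (median 167) at day 5, against 60.6 to 160.1 CPM (median 143) at day 1. Its call was made in 19 of the 27 alternative fits. rde-2 held 86.1 to 103 CPM (median 92.5) at day 5, against 69.5 to 87.2 CPM (median 85.6) at day 1, and shares 24 exon bases with hint-1 on the same strand. It was not called with the length offset (adjusted p = 0.276, edgeR). mut-16, the scaffold on which the complex assembles, was not called and held 156 to 197 CPM (median 175) at day 5, against 61.2 to 189.8 CPM (median 162) at day 1. The helicase mut-14 was among the most even members, at 38.7 to 49.0 CPM (median 43.6) at day 5, against 38.0 to 43.1 CPM (median 40.6) at day 1.

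None of the polymerases and their partners was called over the mean of the plasmids. rrf-1 held 95.7 to 125 CPM (median 109.6) at day 5, against 48.6 to 128 CPM (median 105) at day 1, and ego-1 held 145 to 169 CPM (median 154) at day 5, against 61.4 to 163 CPM (median 148) at day 1. The helicase drh-3, which works with both, held 133 to 158 CPM (median 146) at day 5, against 97.0 to 158 CPM (median 136) at day 1, and their tudor-domain partner ekl-1 held 81.1 to 115 CPM (median 105) at day 5, against 77.6 to 98.0 CPM (median 90.7) at day 1. For ekl-1 the later day-5 libraries lay above the first ones, and it was called without the first ones (log2 fold change 0.27, adjusted p = 0.00311, edgeR). rde-10 and rde-11, which form a complex that feeds amplification, held 46.7 to 53.4 CPM and 57.6 to 75.997 CPM at day 5, against 30.6 to 54.4 CPM and 47.0 to 69.0 CPM at day 1. rde-11 just missed the threshold (log2 fold change 0.18 ± 0.07, adjusted p = 0.0522, edgeR) and was called by DESeq2 (adjusted p = 0.0158). The endonuclease rde-8 held 84.7 to 110.4 CPM (median 97.1) at day 5, against 81.4 to 127 CPM (median 87.0) at day 1, and the DEAD-box helicase rde-12 held 173 to 259 CPM (median 199) at day 5, against 67.9 to 239 CPM (median 212) at day 1.

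Of the 7 secondary Argonautes, 3 rose, against 13% of all tested genes. sago-1 (WBGene00019666, chromosome V from 6303771 to 6308337, plus strand) encodes an Argonaute that carries secondary small RNAs of feeding RNAi. sago-1 stood at 46.2, 74.2 and 77.4 CPM in M05B5.5 libraries at day 5, against 46.3, 50.3 and 50.5 CPM at day 1. In libraries labelled T14F9.5 it stood at 52.8, 63.2 and 63.7 CPM at day 5, against 54.4, 41.1 and 51.5 CPM at day 1, and in L4440 libraries at 52.0, 57.3 and 68.4 CPM at day 5, against 30.9, 23.4 and 42.0 CPM at day 1. The highest day-5 values were those of the later M05B5.5 libraries, and the lowest at day 1 those of L4440 replicates 1 and 2. The log2 fold change was 0.53 ± 0.12 (adjusted p = 0.0120, edgeR). wago-4 (WBGene00010263, chromosome II from 12919551 to 12923377, plus strand), a germ line Argonaute, held 190.3 to 229 CPM (median 197) at day 5, against 79.2 to 181 CPM (median 168) at day 1. All day-5 values of wago-4 lay above all day-1 values, with a log2 fold change of 0.45 ± 0.13 (adjusted p = 0.0213, edgeR). It was not called without the pair of the same index and lane. ppw-1, which is needed for RNAi in the germ line, was called and held 61.9 to 78.1 CPM (median 67.3) at day 5, against 22.2 to 64.9 CPM (median 53.9) at day 1. Without the first day-5 libraries it was not called (adjusted p = 0.0613, edgeR).

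The other 4 secondary Argonautes were not called. wago-1 held 919 to 1104 CPM (median 999) at day 5, against 484 to 1052 CPM (median 969) at day 1. csr-1, the Argonaute that binds small RNAs against expressed germ line genes, held 389 to 530.4 CPM (median 452) at day 5, against 179 to 546 CPM (median 490.3) at day 1. ppw-2 held 93.9 to 118 CPM (median 103) at day 5, against 56.0 to 108 CPM (median 87.5) at day 1. sago-2 had the widest spread of all members at day 1 and held 16.6 to 25.2 CPM (median 20.2) at day 5, against 1.54 to 19.5 CPM (median 17.4) at day 1. The near-identity of some Argonautes was not examined, and reads that match several of them could be split between genes, since the treatment of such reads is not given in the sources used here.

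In nuclear RNAi, 1 of 5 members rose, against 13% of all tested genes. nrde-1 (WBGene00007577, chromosome III from 3713463 to 3718750, plus strand) acts downstream of the nuclear Argonautes at the genes they silence. nrde-1 stood at 72.0, 82.1 and 85.1 CPM in M05B5.5 libraries at day 5, against 68.0, 65.8 and 62.3 CPM at day 1. In libraries labelled T14F9.5 it stood at 73.0, 81.1 and 90.3 CPM at day 5, against 71.8, 55.6 and 66.6 CPM at day 1, and in L4440 libraries at 74.6, 81.0 and 91.9 CPM at day 5, against 55.9, 40.0 and 64.4 CPM at day 1. The day-5 values (72.0 to 91.9 CPM) lay above all day-1 values (40.0 to 71.8 CPM). Its log2 fold change was 0.42 ± 0.09 (adjusted p = 0.0108, edgeR), and 0.26 with the length offset. nrde-1 shares 99 exon bases with C14B1.8 on the opposite strand, which had 34375 counts in all, against 47099 for nrde-1. hrde-1, the germ line nuclear Argonaute, held 749 to 902 CPM (median 853) at day 5, against 313 to 829 CPM (median 737) at day 1. nrde-3, its somatic counterpart, held 93.2 to 114 CPM (median 99.1) at day 5, against 32.0 to 126 CPM (median 103) at day 1. nrde-2 held 125 to 147 CPM (median 134) at day 5, against 54.8 to 145 CPM (median 126) at day 1, and nrde-4 168 to 199 CPM (median 183) at day 5, against 134 to 188 CPM (median 175) at day 1. None of these 4 was called.

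**Figure D4:**
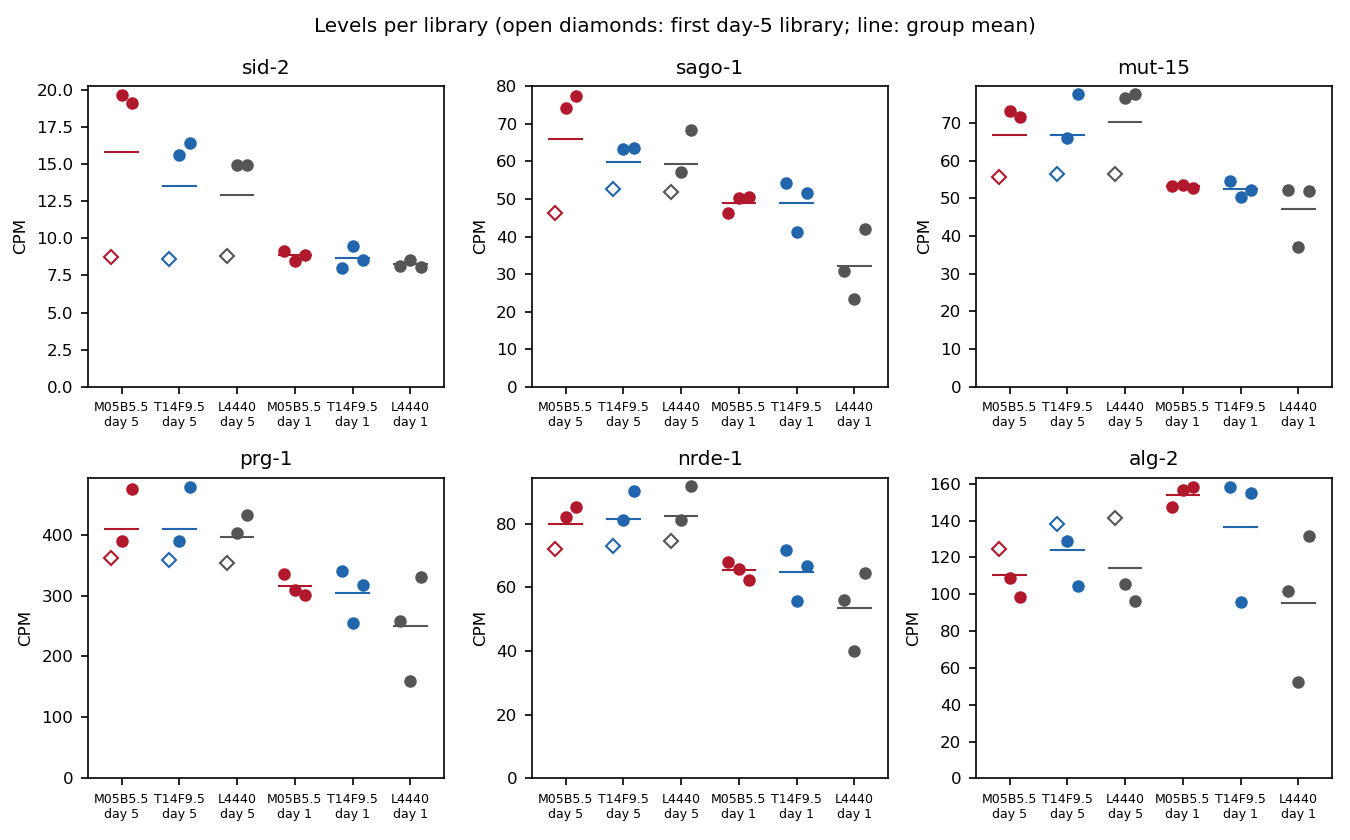
Points give CPM per library for sid-2, sago-1, mut-15, prg-1, nrde-1 and alg-2 by plasmid and age, day 5 on the left, with open diamonds for the first day-5 libraries and lines for group means. The filled day-5 points of sid-2 lie at 14.9 to 19.7 CPM and its diamonds at 8.59 to 8.82 CPM. The day-5 points of alg-2 run from 96.3 to 141 CPM and its day-1 points from 52.2 to 158 CPM.

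Within day 5, 13 of the 43 members (30.2%) had all 6 later libraries above all 3 first libraries, against 22.4% of all tested genes, and 2 members (4.65%, rde-1 and alg-1) had them all below, against 22.9% of all tested genes. The split was chosen from earlier views of these libraries and is given as a description. sid-2 differed most, with a mean of 16.8 CPM in the later and 8.73 CPM in the first libraries, and eri-5 followed with 51.8 and 32.0 CPM.

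Taken by plasmid, age calls were made in L4440 only, which does not show that the plasmids differ. In L4440, 16 members were higher at day 5 and 0 lower, against 6.72% higher and 9.11% lower among all tested genes. The lowest p-values were those of drh-1 (0.52), sago-1 (0.88), nrde-1 (0.63), rrf-1 (0.72), ergo-1 (1.09), henn-1 (0.51), dcr-1 (0.53) and mut-15 (0.58), all log2 fold changes with adjusted p from 0.0355 to 0.0374 (edgeR). For dcr-1, L4440 libraries held 246, 197 and 226 CPM at day 5, against 139.7, 134 and 189 CPM at day 1. For rrf-1 they held 125, 108 and 124 CPM, against 75.3, 48.6 and 93.7 CPM. Of these 16 members, 10 were among the 15 called over the mean of the plasmids (62.5% of the 16 and 66.7% of the 15), and both comparisons share the L4440 libraries. The count was 0 without L4440 day-1 replicate 1, 0 without replicate 2, 29 without replicate 3 (28 of them higher, against 19.7% of all genes), and 0 with the length offset. In that last fit drh-1 (-0.11), rrf-1 (-0.023) and dcr-1 (-0.36) changed sign. The count was also 0 without M05B5.5 day-1 replicate 1, 2 or 3, or L4440 day-5 replicate 2 or 3, and 5 to 10 without T14F9.5 day-1 replicate 1 or 3, T14F9.5 day-5 replicate 2 or 3, or M05B5.5 day-5 replicate 2.

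In M05B5.5 and in libraries labelled T14F9.5 the test called 0 members and 0 of all genes, or 0%, although 1905 and 1496 of all genes had an unadjusted p under 0.05, and DESeq2 also called 0 members. The lowest adjusted p of a member was that of sid-2 in both, 0.309 in M05B5.5 (log2 fold change 0.84 ± 0.30) and 0.491 in T14F9.5 (0.64 ± 0.30, edgeR). In M05B5.5 rde-11 (0.31), eri-5 (0.61) and mut-15 (0.33) came next. In T14F9.5 they were mut-15 (0.35), nrde-1 (0.33) and eri-5 (0.55). By length, the median age fold change (log2) in M05B5.5 was -0.038 over the 22 longer members and 0.18 over the 21 shorter ones. In T14F9.5 these medians were 0.12 and 0.16, and in L4440 0.58 and 0.48. The rise of the longer members over the mean of the plasmids was thus not seen in M05B5.5. Without the first day-5 libraries, 5 members were higher in M05B5.5 (sid-2, eri-5, eri-1, sago-1 and mut-15), against 9.78% of all genes. In T14F9.5 there were 3 (sid-2, eri-5 and mut-15), against 7.56%. sid-2 then had a log2 fold change of 1.13 in M05B5.5 and 0.88 in T14F9.5 (adjusted p = 4.37e-05 and 0.000293, edgeR). The libraries left out were chosen for lying with day 1 in these same data, a choice that favours a larger rise. These values and calls are therefore no separate support.

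The plasmid comparisons set the libraries labelled M05B5.5 or T14F9.5 against those of the empty vector, and lin-32 was not lower in the T14F9.5 ones. At day 1, 0 of the 43 members and 0% of all genes passed the test for M05B5.5 against L4440, with 22 members and 4685 of all genes at an unadjusted p under 0.05. M05B5.5 and L4440 share no lane at day 1, and there the lane cannot be told apart from the plasmid. The lowest adjusted p was that of rde-4, at 177, 159 and 153 CPM in M05B5.5 libraries, against 251, 419 and 196 CPM in L4440. Its log2 fold change was -0.83 ± 0.21 (adjusted p = 0.0709, edgeR), and -0.46 without L4440 replicate 2. sid-3 held 54.3, 58.3 and 58.7 CPM in M05B5.5, against 32.6, 18.8 and 44.9 CPM in L4440 (0.83 ± 0.25, adjusted p = 0.0709, edgeR), and its fold change was 0.56 without L4440 replicate 2 and 0.15 with the length offset. The groups do not overlap in either gene, and the L4440 values spread far more than those of M05B5.5. rrf-1 held 105, 117 and 114 CPM, against 75.3, 48.6 and 93.7 CPM in L4440 (0.63 ± 0.19, adjusted p = 0.0716, edgeR). Its fold change was 0.41 without L4440 replicate 2 and turned to -0.20 with the length offset. rsd-6 held 203, 202 and 203 CPM, against 128, 99.8 and 186 CPM in L4440 (0.55 ± 0.17, adjusted p = 0.0719, edgeR). Without L4440 replicate 2 this was 0.36, and with the length offset 0.086.

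M05B5.5 lay above L4440 without overlap in 20 of 43 members at day 1 and below it in 4 (rde-4, rde-8, rde-11 and sid-5), against 21% and 20.3% of all tested genes. DESeq2 called 8 members higher and 2 lower, against 6.46% and 7.90% of all genes. For the libraries labelled T14F9.5 at day 1, 0 members and 0% of all genes passed, with 15 members and 3357 of all genes at an unadjusted p under 0.05, and DESeq2 called 0 members. Those of lowest p were rde-4 (-0.69 ± 0.20), drh-1 (0.39 ± 0.12), rrf-1 (0.62 ± 0.19) and rsd-6 (0.54 ± 0.17), all with an adjusted p of 0.146 (edgeR). With the length offset drh-1 turned to -0.15 and rrf-1 to -0.019. drh-1 held 83.7, 71.0 and 77.7 CPM in T14F9.5, against 51.8, 53.3 and 71.9 CPM in L4440, and the ranges overlap. T14F9.5 lay above L4440 without overlap in 2 members (henn-1 and ekl-1) and below it in 2 (rde-11 and mut-14), against 8.56% and 8.35% of all genes. The 2 comparisons share their L4440 libraries.

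The day-1 fold changes followed the length of the genes. Against L4440, M05B5.5 had a median log2 fold change of 0.52 over the 22 longer members and 0.13 over the 21 shorter ones, and T14F9.5 had 0.43 and 0.15. Over the 43 members Pearson r with log2 exon length was 0.76 for M05B5.5 and 0.73 for T14F9.5, across genes that share these libraries. The median over all members was 0.37 for M05B5.5, 0.22 without L4440 day-1 replicate 2, and -0.18 with the length offset. For T14F9.5 it was 0.31, 0.14 and -0.10. L4440 day-1 replicate 3 was the control of that age that did not lean with length. Without it instead, 25 members were called higher and 2 lower for M05B5.5, against 18.3% and 15.4% of all genes. For T14F9.5, 24 were called higher and 1 lower, against 14.6% and 11.4%. The direction of the set at day 1 therefore differs between these fits.

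**Figure D5:**
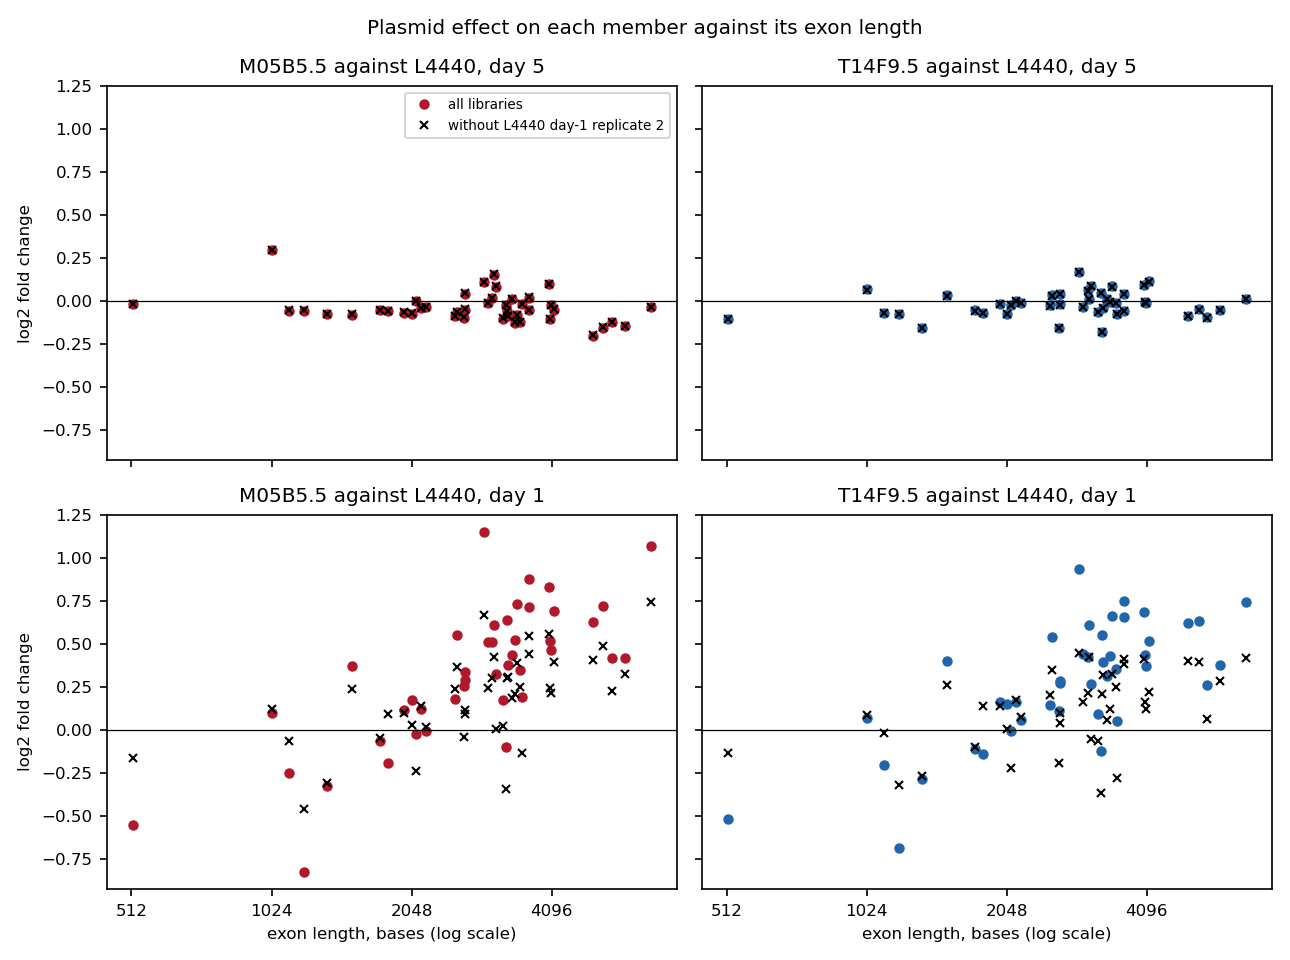
Each panel plots the log2 fold change of the 43 genes, M05B5.5 or T14F9.5 over L4440, against exon length on a log scale, at day 5 above and day 1 below, with crosses for the fit without L4440 day-1 replicate 2. Day-5 points lie between -0.20 and 0.30 at all lengths, while day-1 points climb with length, with r of 0.76 for M05B5.5 and 0.73 for T14F9.5.

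At day 5 the members were close between plasmids. For M05B5.5 and for T14F9.5 against L4440, 0 members and 0% of all genes passed, 0 members had an unadjusted p under 0.05 (200 and 93 of all genes did), and DESeq2 called 0 members. Fold changes ran from -0.20 (rrf-1) to 0.30 (sid-2) for M05B5.5 and from -0.18 (rde-12) to 0.17 (sago-2) for T14F9.5. The 95% intervals lay within 1 log2 unit of 0 for 42 of 43 members in both comparisons, the exception being sago-2, and within 0.5 for 23. rrf-1 held 105, 111 and 95.7 CPM in M05B5.5, against 125, 108 and 124 CPM in L4440 (-0.20 ± 0.19). sid-2 (0.30 ± 0.29), dcr-1 (-0.15 ± 0.15) and drh-3 (-0.12 ± 0.13) had the next lowest p. In T14F9.5, rde-11 held 57.6, 58.1 and 68.6 CPM, against 61.5, 67.4 and 75.997 CPM in L4440 (-0.15 ± 0.11). rde-12 (-0.18 ± 0.28), sid-1 (-0.15 ± 0.25) and mut-14 (-0.05 ± 0.11) came next. Groups did not overlap in ego-1, lower in M05B5.5, and in sago-2, higher in T14F9.5. Among all genes 1.64% did not overlap in each direction for M05B5.5, and 1.64% higher and 1.55% lower for T14F9.5.

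Averaged over both gene plasmids and both ages, 0 members and 0% of all genes passed, with 9 members and 2900 of all genes at an unadjusted p under 0.05, and DESeq2 called 0 members. The lowest were rde-4 (-0.41 ± 0.12) and rde-11 (-0.21 ± 0.07), both with an adjusted p of 0.207, sid-3 (0.43 ± 0.15, adjusted p = 0.211) and sago-1 (0.35 ± 0.13, adjusted p = 0.212, edgeR). The interaction, the plasmid effect at day 5 minus that at day 1, also called 0 members and 0% of all genes, with 11 members and 2228 of all genes at an unadjusted p under 0.05 and 0 members in DESeq2. rrf-1 (-0.77 ± 0.24), drh-1 (-0.45 ± 0.15), rde-4 (0.69 ± 0.25) and ego-1 (-0.78 ± 0.28) had the lowest p, each with an adjusted p of 0.327 (edgeR). With the length offset drh-1 turned to 0.16 and rrf-1 lay at -0.032. Thus a difference in age effect between the gene plasmids and L4440 did not pass the test in any member. Without L4440 day-1 replicate 3, the control of that age that did not lean with length, both comparisons called 19 members. Over both ages 17 were higher and 2 lower, against 11.9% and 9.01% of all genes, and in the interaction 1 was higher and 18 lower, against 7.29% and 10.9%.

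Of a list of 66 further small RNA genes, named for their roles in the same pathways, 60 were matched and 59 tested. Over the mean of the plasmids, 12 were higher at day 5 and 0 lower, against 13% higher and 15.2% lower among all tested genes. Their median log2 fold change was 0.14, against -0.002 over all tested genes. Lowest in p were rrf-2, a polymerase paralog (0.74 ± 0.19, adjusted p = 0.0148), the nucleotidyltransferase mut-2 (0.32 ± 0.08, 0.0167), snpc-4, a factor for piRNA transcription (0.34 ± 0.09, 0.0174), and tofu-1, a piRNA processing gene (0.49 ± 0.14, 0.0211, edgeR). By group, to be read beside the same 13%, 3 of 14 genes for double-stranded RNA and polymerase cofactors rose, 3 of 12 for germ granules and 3 of 10 for piRNA transcription and processing. The counts were 2 of 8 for microRNA maturation and effectors, 1 of 11 for nuclear silencing and chromatin and 0 of 4 for other Argonautes. Of the other Argonautes, alg-3, alg-4, wago-5 and wago-10 had group means of at most 0.56 CPM, near the floor. None of the further small RNA genes passed in a plasmid comparison.

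Marker genes of tissues were counted in the same comparison, in which 13% of all tested genes were higher and 15.2% lower. Of 12 germ line markers 4 were higher at day 5 and 0 lower, with a summed level of 6068 to 6981 CPM in M05B5.5, 6122 to 6895 CPM in T14F9.5 and 6292 to 7194 CPM in L4440 at day 5. At day 1 the sums were 6478 to 6830 CPM in M05B5.5, 4659 to 6937 CPM in T14F9.5 and 2899 to 6487 CPM in L4440. Of 10 oocyte and eggshell markers 2 were higher and 0 lower. Lower were 4 of 8 muscle markers, 2 of 8 hypodermis markers, 2 of 10 intestine markers (1 higher), 1 of 10 neuron markers and 4 of the 9 sperm markers that could be tested. Muscle sums were 710.2 to 2371 CPM at day 5, the top value of each plasmid being its first library, and 1786 to 2433 CPM at day 1. Sperm markers summed to at most 10.8 CPM in any library. The embryo markers had 1 higher and 1 lower of 9. The part of tissue make-up in the rise of the small RNA genes was not tested. The germ line markers and the further small RNA genes share glh-1, pgl-1 and pgl-3.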

How the data were processed

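Libraries were made from total RNA of whole worms with the TruSeq RNA Library Preparation Kit v2, per the labels' protocols, a kit that does not mark strand. Per the submitters' processing notes, the tools were bcl2fastq 1.8.4, STAR 2.4.1d and featureCounts 1.4.6-p4, and the build was WBcel235. How strand and multi-mapped reads were handled, and with which annotation, is not given in the sources used here. The deposited table holds the authors' raw read counts per gene. The RPKM table was not used here.

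The 43 members and all gene lists were chosen with earlier results of these data known. Members were matched by name through Ensembl release 115 of WBcel235, which names 46449 of the 46748 genes and gave exon lengths (union of exons). Groups follow plasmid and age in the labels. Replicates are numbered in accession order, so "first day-5 library" is the first accession. edgeR 4.0.16 in R 4.3.3 fitted the 18 libraries together, with a coefficient for each group, after filterByExpr (minimum count 10) and TMM scaling. The robust quasi-likelihood tests had 12 residual degrees of freedom, with Benjamini-Hochberg adjustment over all 14735 genes and calls at an adjusted p under 0.05. SE and 95% intervals come from that fit, and SD is not shown where every library is given. The fit was run on simulated counts with known changes. These had no trend with gene length and no uneven libraries, so they do not show how it handles such libraries here.

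With fold change and test, the rule named up to 8 called members per direction and comparison by lowest p, the 4 of lowest p where fewer than 4 passed, and 4 of the further small RNA genes. Alternatives were a fit of the compared groups alone, a term for lane, DESeq2 1.42.0, scaling by upper quartile or RLE, filters of 50 counts or none, a length offset (natural spline, 4 degrees of freedom), and leaving out libraries. No library was dropped from the main fit. The total counts limit precision to counting error at best, and the spread between replicates was larger.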

Additional observations from a re-analysis of the deposited data

How the results depend on the processing

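The count of members called for age over the mean of the 3 plasmids stayed within 1.5 times of 15 under other factors, filters, DESeq2 and the length offset, and was 5 without the pair of the same index and lane. For age in L4440, the 16 members became 4 with no filter on low counts, and 0 with the compared groups alone, with the length offset and without the pair. Age in M05B5.5 had 0 members, and 5 without the first day-5 libraries and 10 also without L4440 day-1 replicate 2, and age in T14F9.5 had 0, 3 and 7 in the same fits. M05B5.5 against L4440 at day 1 had 0, and 10 in DESeq2. Leaving out each library in turn gave 0 to 19 for both gene plasmids over both ages, 0 to 27 for M05B5.5 and 0 to 25 for T14F9.5 at day 1, 7 to 29 for age over the plasmids, 0 to 1 for age in M05B5.5, 0 to 29 for age in L4440 and 0 to 19 for the interaction. Where no share of all genes stands beside a count, it shows only how calls moved between fits, not a trait of the members. The causes were not tested.

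Of the named log2 fold changes, some changed sign. With the length offset, rrf-1 was at -0.20 for M05B5.5 and -0.019 for T14F9.5 at day 1, drh-1 at -0.15 for T14F9.5 at day 1 and 0.16 for the interaction, and in L4440 with age drh-1 was at -0.11, rrf-1 at -0.023 and dcr-1 at -0.36. With lane as a term, sid-2 was at -0.070 for M05B5.5 and sid-1 at 0.050 for T14F9.5 at day 5. For T14F9.5 at day 5, rde-12 was at 0.037 without the first day-5 libraries and 0.050 also without L4440 day-1 replicate 2, and was as low as -0.24 without L4440 day-5 replicate 2. Leaving out 1 library moved mut-14 there over -0.16 to 0.017, the positive value without T14F9.5 day-5 replicate 2. Over the other alternatives of named fold changes, 1300 kept direction and side of the threshold, 105 lost the call and 35 gained one. Lane could not be fitted for age over the plasmids, in L4440 or in T14F9.5. No paired analysis was possible because the labels give no replicate numbers shared across groups.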
